A study of Danio rerio with 21 samples.

Results

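The 10 genes described here encode the transcription factors that are most often used to define the cardiac programme of the zebrafish: nkx2.5, gata4, gata5, gata6, tbx5a, tbx5b, tbx20, hand2, mef2ca and mef2cb. Of these 10 genes, 9 were measured by a microarray feature that the annotation of the array assigns to that gene alone, and gata6 was not analysed here. Each of the 9 had a single feature, and all 9 passed the signal filter used for testing, which left 35783 of 75212 features. The genes were taken by name, but the list was chosen with earlier results of these data known. Counts of calls among them therefore do not come from a list made without sight of the data. They are followed here over the whole time course of heart regeneration.

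The samples were ventricles of adult TU zebrafish, given as 10 to 11 months old. Whether this was the age at injury or at collection is not stated. Any age difference between the 90 dpi and control fish therefore cannot be told apart from time after injury. Uninjured hearts served as controls, and the other groups were hearts after cryoinjury of the ventricle, collected at 4 hours (4 hpi) and at 5 later times from 1 to 90 days (1, 3, 7, 14 and 90 dpi). Each of the 7 groups held 3 pools, and each pool combined 5 ventricles before RNA extraction. The RNA of each of the 21 pools was hybridised to 1 Affymetrix Zebrafish Gene 1.0 ST array. No genotype or drug distinguished the groups. The uninjured fish were not described as operated, so cryoinjury, surgery and anaesthesia cannot be told apart, and a single control group served all 6 times, so that the comparisons with control share these 3 pools.

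The values are log2 signals, in which a difference of 1 is a 2-fold difference. The median signal of the arrays lay between 5.138 and 5.196, and pairs of arrays of the same group correlated across features with r between 0.952 and 0.977. Heart muscle markers gave strong signals: the mean of 15 measured cardiomyocyte markers lay between 11.33 and 11.72 on all 21 arrays, above these medians. Whether the tissue was ventricle and not atrium was not tested with markers. A level cannot be compared between genes on these arrays, because each feature has its own probes, and only differences between samples are interpreted here.

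Nkx2.5 is a homeodomain protein, the Gata proteins are zinc finger proteins, Tbx5 and Tbx20 are T-box proteins, Hand2 is a basic helix-loop-helix protein and the Mef2 proteins belong to the MADS-box family. They bind the regulatory regions of heart muscle genes together and bind those of each other, and in the embryo they specify heart progenitors and switch on the genes of contraction. In the adult heart they remain expressed in cardiomyocytes, while gata4, gata5, tbx20 and hand2 products are also known from other heart layers such as endocardium or epicardium. Regenerating zebrafish cardiomyocytes are known to switch on gata4 regulatory sequences close to the wound.

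Most of these genes were lower in the ventricle shortly after injury, 1 of them was higher, and at 90 dpi their log2 fold changes against control lay between -0.11 and 0.35. At 4 hpi, nkx2.5, gata4, tbx5a, tbx5b and tbx20 were lower than in controls and mef2cb was higher. This made 5 of 9 genes lower, against 17.5% of all tested features, and 1 of 9 higher, against 21.3%, at an adjusted p below 0.05 in limma. At 1 dpi mef2ca joined the lower genes, so that 6 of 9 were lower against a background of 16.5%, and 1 of 9 was higher against 22%. A bulk sample cannot tell fewer cells of a type from less RNA per cell, and this holds for every difference below.

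Fewer of these genes were called at each time from 3 to 90 dpi than at 1 dpi, but more at 14 dpi than at 7 dpi. The shares of all tested features called were also smaller at these times than at 1 dpi. At 3 dpi, 5 of 9 genes were lower (background 14.9%) and 0 were higher (20.7%). At 7 dpi, tbx20 was the 1 lower gene (background 8.02%) and 0 were higher (14.5%). At 14 dpi, tbx5b and tbx20 made 2 lower genes (4.57%), and mef2cb was the 1 higher gene (9.39%). The 1 lower gene at 7 dpi and the 1 higher gene at 14 dpi are shares near the background. At 90 dpi the limma test called 0 genes higher (11.2%) and 0 lower (7.68%), while 1 gene, gata5, had an unadjusted p below 0.05 and was called higher with a trended and robust variance (adjusted p = 0.0460).

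The median log2 fold change of the 9 genes against control was -0.41 at 4 hpi, -0.49 at 1 dpi, -0.40 at 3 dpi, -0.22 at 7 dpi, -0.17 at 14 dpi and 0.18 at 90 dpi. The median over all tested features stayed between 0.01 and 0.06 at these times. Strongly expressed features were lower more often than all tested features, which matters here because all 9 genes gave strong signals. Among the 5788 features with a mean signal of at least 8.78, that of the dimmest of the 9 genes, 23.2% were lower at 4 hpi, 31.3% at 1 dpi and 27.3% at 3 dpi; this background was chosen after the values were seen. In a test over all 7 groups at once, 8 of 9 genes differed between groups, with hand2 as the exception, against 65.2% of all tested features. After quantile normalization, and with a trended and robust variance, all 9 passed this test.

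**Figure D1:**
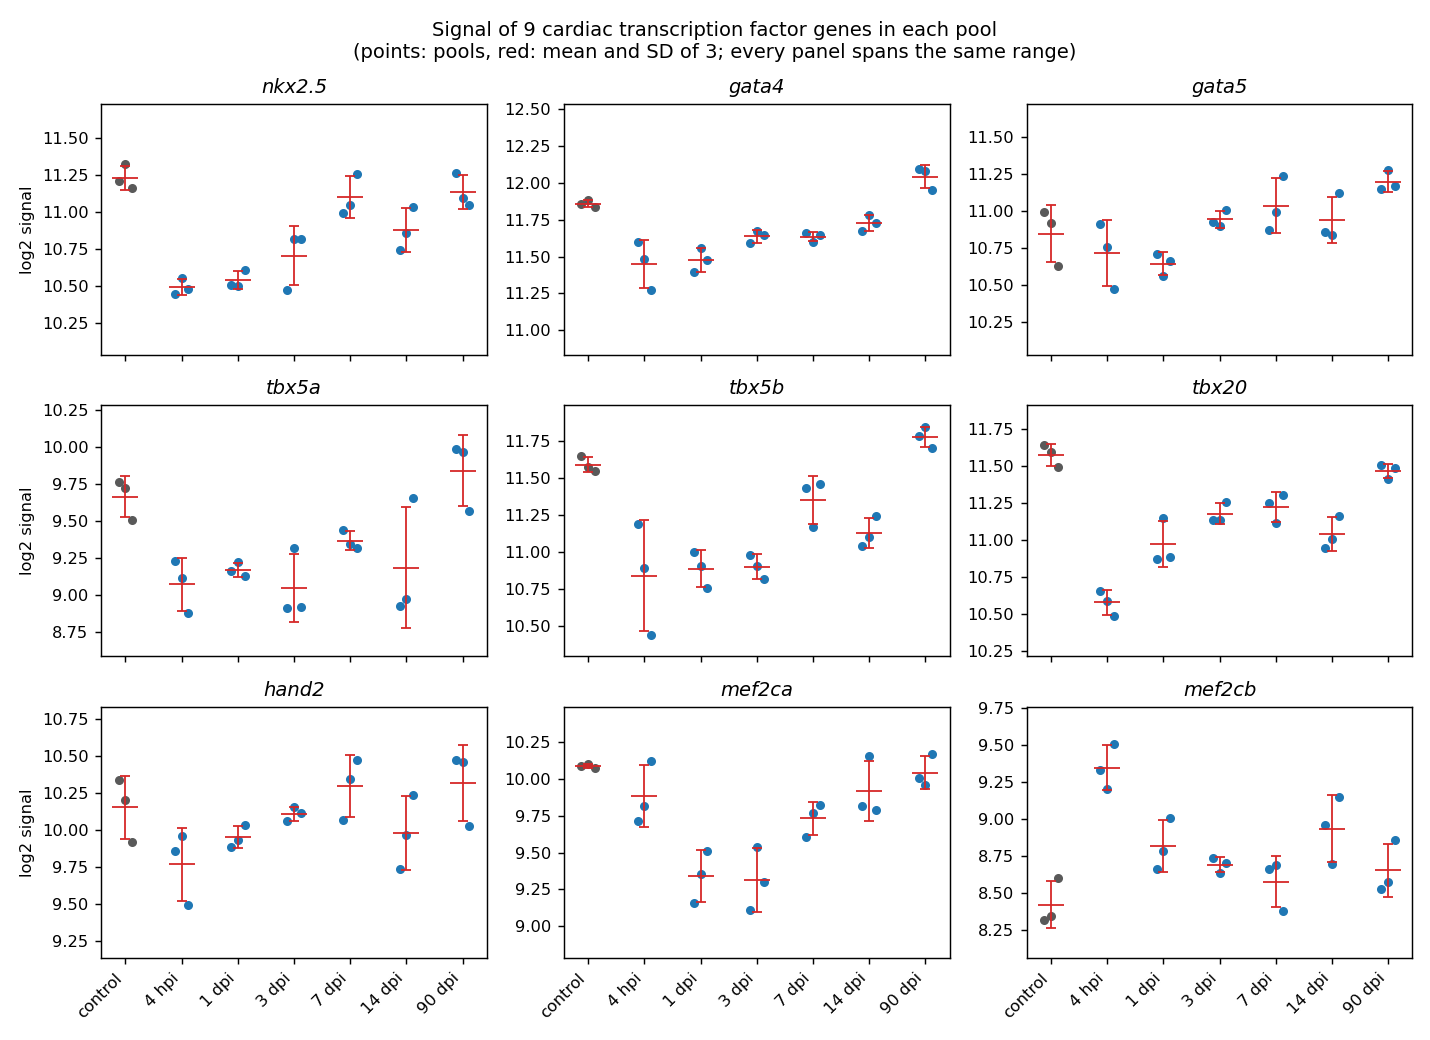
Log2 signal (vertical axis) of each of the 9 genes in the 3 pools (points) of each group (horizontal axis), with the mean and SD in red and the same range of values in every panel. The lowest means of nkx2.5, gata4, tbx5b and tbx20 lie at 4 hpi, those of mef2ca at 1 and 3 dpi, and mef2cb peaks at 4 hpi.

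**Figure D2:**
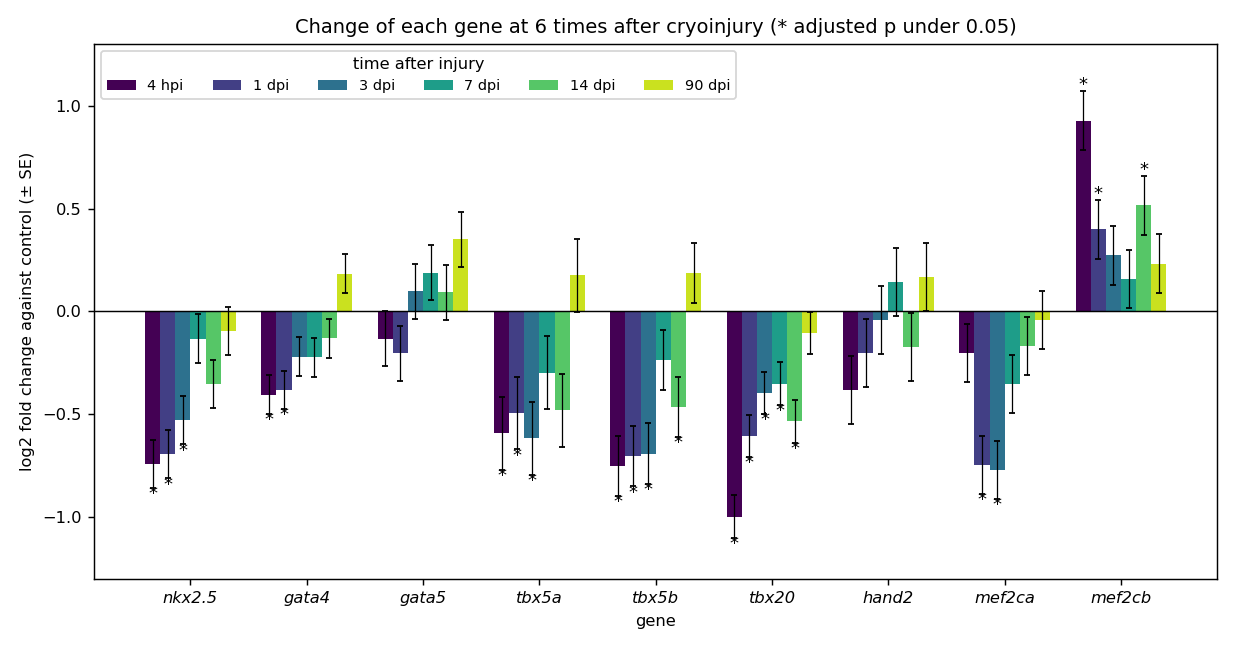
Log2 fold change against control (vertical axis, bars with SE from limma) of each gene (horizontal axis) at 6 times after cryoinjury (colours), with an asterisk for an adjusted p below 0.05. The bars of tbx20 at 4 hpi (-0.997) and of mef2cb at 4 hpi (0.93) are the longest in either direction.

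Nkx2.5, the homeodomain factor that marks heart progenitors from their first appearance, was lower for the first 3 days. Its log2 signal was 10.45, 10.55 and 10.48 at 4 hpi, 10.51, 10.50 and 10.61 at 1 dpi, and 10.47, 10.82 and 10.82 at 3 dpi, against 11.21, 11.32 and 11.17 in controls. All 9 of these injured pools lay below every control pool, and 1 pool of 3 dpi was as low as the pools of 4 hpi. The log2 fold change was -0.74 ± 0.12 (SE; adjusted p = 9.3e-05, limma) at 4 hpi, which left the gene at 0.598 times the control signal, and -0.69 ± 0.12 (adjusted p = 1.5e-04) at 1 dpi. At 3 dpi it was -0.53 ± 0.12 (adjusted p = 0.00180).

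At 7 dpi nkx2.5 had log2 signals of 11.00, 11.05 and 11.26, which overlapped the controls. The pools of 14 dpi, at 10.75, 10.86 and 11.04, again lay below every control pool, but the difference of -0.35 ± 0.12 missed the threshold (adjusted p = 0.0541). It passed without the third pool of 14 dpi (-0.43, adjusted p = 0.0437). At 90 dpi the signals were 11.27, 11.10 and 11.04, and the log2 fold change was -0.10 (adjusted p = 0.604).

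Gata4, a zinc finger factor with roles in heart muscle formation and growth, had a shallower decrease. Its log2 signal was 11.60, 11.48 and 11.28 at 4 hpi and 11.39, 11.56 and 11.48 at 1 dpi, against 11.86, 11.88 and 11.83 in controls. The controls were tight, and every pool of the 5 times from 4 hpi to 14 dpi was below them. Against control, gata4 changed by -0.41 ± 0.09 at 4 hpi (adjusted p = 0.00251) and -0.38 ± 0.09 at 1 dpi (adjusted p = 0.00373). It was -0.22 at 3 dpi and at 7 dpi (adjusted p = 0.0782 and 0.100) and -0.13 at 14 dpi (adjusted p = 0.398).

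At 90 dpi gata4 reached 12.09, 12.08 and 11.95, above every control pool. The log2 fold change of 0.18 did not pass the test (adjusted p = 0.183). The highest and the lowest group of this gene were thus 90 dpi and 4 hpi, and controls lay between them.

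Gata5 is a relative of gata4 that is required for endoderm and heart muscle formation in the zebrafish embryo. In the main limma fit it showed no call at any single time. Its log2 signal was 10.91, 10.75 and 10.47 at 4 hpi, against 10.99, 10.92 and 10.63 in controls, and the groups overlapped. The difference at 4 hpi was -0.13, with a 95% interval from -0.41 to 0.15. At 90 dpi the 3 pools had 11.15, 11.28 and 11.17, above every control pool, and the log2 fold change was 0.35 ± 0.13 (adjusted p = 0.0735). Over all 7 groups gata5 differed between groups (adjusted p = 0.0190), with its lowest mean at 1 dpi and its highest at 90 dpi. The sign of its small difference at 3 dpi (0.10) and at 14 dpi (0.09) turned when the arrays were centred on the median of the tested features. With centred arrays gata5 was called lower at 1 dpi (-0.39, adjusted p = 0.0276, limma), against -0.20 (adjusted p = 0.244) in the main fit.

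The T-box gene tbx20 encodes a repressor and activator needed for chamber formation and for the maintenance of adult heart muscle in the mouse. It was called lower at each time from 4 hpi to 14 dpi, and a difference in duration from the other genes was not tested. Its log2 signal was 10.66, 10.59 and 10.49 at 4 hpi, against 11.64, 11.59 and 11.49 in controls. The lowest control pool was 0.83 above the highest pool of 4 hpi. Its log2 fold change was -0.997 ± 0.10 (adjusted p = 1.35e-06), so that the signal was 0.501 times that of controls.

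Tbx20 then came back in part. It had log2 signals of 10.88, 11.15 and 10.89 at 1 dpi and 11.14, 11.13 and 11.26 at 3 dpi, with log2 fold changes against control of -0.60 (adjusted p = 1.6e-04) and -0.40 (adjusted p = 0.00578). At 7 dpi it was at 11.25, 11.11 and 11.31 (-0.35, adjusted p = 0.0206) and at 14 dpi at 10.95, 11.01 and 11.17 (-0.54 ± 0.10, adjusted p = 0.00245). Every pool of these 5 times lay below every control pool, which for no other gene came with a call at all 5 times. The call at 7 dpi was lost without the first or the second control pool or without the second pool of 7 dpi, at adjusted p values between 0.0596 and 0.0916. At 90 dpi tbx20 had 11.50, 11.42 and 11.49 and differed from control by -0.11 (adjusted p = 0.507).

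Tbx5b, 1 of the pair of zebrafish genes related to mammalian TBX5, the gene mutated in Holt-Oram syndrome of heart and hand, had log2 signals of 11.19, 10.89 and 10.44 at 4 hpi, against 11.65, 11.58 and 11.55 in controls. The pools of 4 hpi were spread over a wider range than those of any other group of this gene, but all were below the controls. The log2 fold change was -0.75 ± 0.15 at 4 hpi (adjusted p = 6.3e-04), -0.70 at 1 dpi (adjusted p = 9.9e-04) and -0.69 at 3 dpi (adjusted p = 0.00127). At 14 dpi, with 11.04, 11.10 and 11.24, it was -0.46 (adjusted p = 0.0428), a call that was lost without any 1 of the 6 pools of the comparison (adjusted p from 0.0580 to 0.131). At 90 dpi the pools had 11.78, 11.84 and 11.71, all above the controls (0.19, adjusted p = 0.395).

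Tbx5a, the other gene of the pair, known for its need in heart looping and fin formation, had log2 signals of 9.23, 9.11 and 8.88 at 4 hpi, against 9.76, 9.72 and 9.51 in controls. The log2 fold changes were -0.59 ± 0.18 at 4 hpi (adjusted p = 0.0132), -0.49 at 1 dpi (adjusted p = 0.0346) and -0.62 at 3 dpi (adjusted p = 0.0111). Unlike the calls of tbx5b at these times, they were lost when single pools were left out. The call at 4 hpi was lost without the third pool of 4 hpi (-0.50, adjusted p = 0.0600), and that at 3 dpi without the first pool of 3 dpi (-0.55, adjusted p = 0.0501). The call at 1 dpi held without the third control pool and was lost without any other single pool (adjusted p from 0.0589 to 0.100).

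At 14 dpi the third pool of tbx5a, at 9.66, stood apart from the other 2, at 8.93 and 8.97. With it the log2 fold change was -0.48 (adjusted p = 0.0798), and without it -0.72 (adjusted p = 0.00897). At 90 dpi the gene had 9.99, 9.97 and 9.57, which overlapped the controls (0.18, adjusted p = 0.525).

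Hand2 is a basic helix-loop-helix factor without which the zebrafish embryo forms too few heart muscle cells. In the main limma fit it passed the test at no time and did not pass the test over all groups (adjusted p = 0.0607). Its log2 signal was 9.86, 9.96 and 9.49 at 4 hpi, against 10.34, 10.20 and 9.92 in controls, and the groups overlapped through the third control pool. The difference was -0.38, with a 95% interval from -0.73 to -0.03 (adjusted p = 0.0765). Without that control pool it was -0.50 (adjusted p = 0.0403), and with centred arrays it was -0.51 (adjusted p = 0.0163, limma). After quantile normalization, and with a trended and robust variance, hand2 passed the test over all groups. At the other times its differences from control lay between -0.20 and 0.17.

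Mef2ca, a MADS-box factor of heart and skeletal muscle, was lower later than the other genes. Its log2 signal at 4 hpi was 9.71, 9.82 and 10.12, against 10.09, 10.10 and 10.07 in controls, a difference of -0.20 with overlapping pools (95% interval from -0.50 to 0.09). At 1 dpi it was 9.16, 9.35 and 9.51, and at 3 dpi it was 9.11, 9.54 and 9.30. All 6 of these pools were at least 0.53 below the lowest control pool. Against control the log2 fold change was -0.74 ± 0.14 at 1 dpi (adjusted p = 4.2e-04) and -0.77 ± 0.14 at 3 dpi (adjusted p = 3.4e-04), or 0.597 and 0.586 times the control signal. At 7 dpi, with 9.61, 9.77 and 9.82, the gene was still below every control pool but missed the threshold (-0.35, adjusted p = 0.0828), and at 14 and 90 dpi it overlapped the controls.

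Mef2cb, the second mef2c gene of the zebrafish, which acts with mef2ca in the differentiation of heart muscle, moved the opposite way. Its log2 signal was 9.33, 9.20 and 9.51 at 4 hpi, against 8.32, 8.34 and 8.61 in controls. This was a log2 fold change of 0.93 ± 0.14 (adjusted p = 7.1e-05), or 1.90 times the control signal, and no pool overlapped. At 1 dpi the signals were 8.67, 8.79 and 9.01 (0.40, adjusted p = 0.0346) and at 14 dpi 8.96, 8.70 and 9.15 (0.52, adjusted p = 0.0223), all above the controls. The call at 1 dpi was lost without the first or second control pool or without the second or the third pool of 1 dpi (adjusted p from 0.0617 to 0.149), and that at 14 dpi without the first or second control pool or without the first or the third pool of 14 dpi (adjusted p from 0.0673 to 0.108). At 3, 7 and 90 dpi the log2 fold changes were 0.27, 0.16 and 0.23 and passed no test.

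Related genes can be set against each other within an array, where the amount and quality of the RNA are shared. The question was whether the 2 genes of a pair changed unequally, and it was put to the 15 pools of 4 hpi to 14 dpi against the 6 pools of control and 90 dpi hearts, the split into injured and healthier hearts that the study made. The difference mef2ca minus mef2cb averaged 0.76 ± 0.34 in injured hearts and 1.53 ± 0.19 in healthier hearts (SD, n = 15 and 6), a shift of -0.76 (exact permutation test, two-sided, p = 1.8e-04, adjusted p = 5.5e-04 over 3 pairs). It was 0.38, 0.61 and 0.61 at 4 hpi and 0.49, 0.57 and 0.50 at 1 dpi, against 1.77, 1.75 and 1.46 in controls. The difference was below that of every control pool at each of the 5 times from 4 hpi to 14 dpi, with p = 0.1 in the exact permutation test at each time, the smallest p that 3 against 3 pools can give. The test of 15 against 6 pools, for all 3 pairs, exchanged single pools and took pools of 1 time as independent. Its p-value does not measure the spread between times, and the mean difference in injured hearts ranged from 0.52 at 1 dpi to 1.15 at 7 dpi.

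For the pair tbx5a and tbx5b no shift was detected, and their difference averaged -1.85 ± 0.21 in injured hearts and -1.93 ± 0.13 in healthier hearts (SD, n = 15 and 6; exact permutation test, two-sided, p = 0.406, adjusted p = 0.406). The sign of the shift of 0.08 turned when the arrays of the third replicate number were left out (-0.04). At 1 dpi the difference lay above that of every control pool, with a mean shift of 0.21 (exact permutation test, p = 0.1). It overlapped the controls at every other time. The difference gata4 minus gata5 averaged 0.73 ± 0.14 in injured hearts and 0.93 ± 0.16 in healthier hearts (SD, n = 15 and 6), a shift of -0.20 (exact permutation test, two-sided, p = 0.0112, adjusted p = 0.0169). It missed the threshold without the arrays of replicate number 1 (exact permutation test, adjusted p = 0.114) or of number 3 (adjusted p = 0.135). The gata4 minus gata5 difference lay below that of every control pool at 4 hpi, 3 dpi and 7 dpi. The mean shifts were -0.27, -0.32 and -0.41, each at p = 0.1 in the exact permutation test. The pools overlapped the controls at 1, 14 and 90 dpi. Whether the probes of a feature also bind the transcript of the related gene was not tested.

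**Figure D3:**
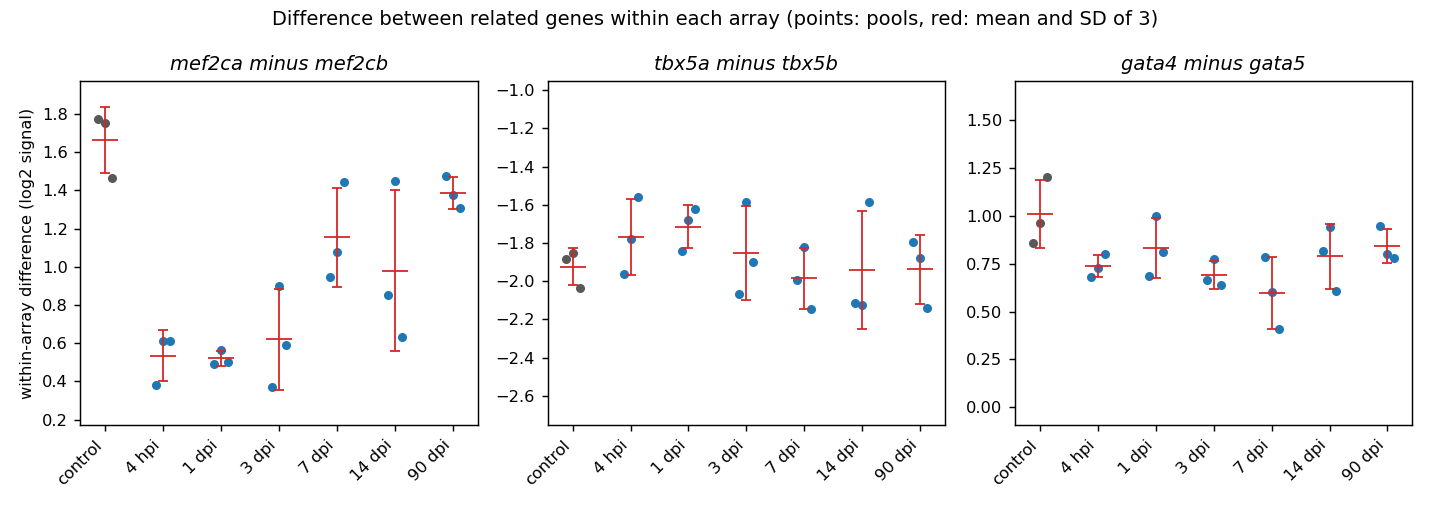
Difference in log2 signal between 2 related genes on the same array (vertical axis) in the 3 pools (points) of each group (horizontal axis), with mean and SD in red and the same range in every panel. The mef2ca minus mef2cb difference has a mean of 0.53 at 4 hpi and 1.39 at 90 dpi, against 1.66 in controls, whereas the tbx5a minus tbx5b difference averages -1.85 in injured and -1.93 in healthier hearts.

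Comparisons of successive times show when the genes moved. At 1 dpi, relative to 4 hpi, tbx20 was higher (0.39, adjusted p = 0.00637), and mef2ca (-0.54, adjusted p = 0.00591) and mef2cb (-0.53, adjusted p = 0.00776) were lower. This was 1 of 9 genes higher, against 19.4% of all tested features, and 2 of 9 lower, against 15%. The 1 higher gene and the 2 lower genes are shares near the background. Mef2ca and mef2cb thus moved the same way between these times. At 3 dpi relative to 1 dpi, 0 genes were higher (background 2.72%) and 0 lower (1.27%) in limma, with 1 gene at an unadjusted p below 0.05 and 0 calls with a trended and robust variance.

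At 7 dpi relative to 3 dpi, nkx2.5 was the 1 gene called higher (0.40, adjusted p = 0.0497; background 2.11%) and 0 were lower (4.86%). This call was lost without any 1 of the 3 pools of 7 dpi or without the first or the third pool of 3 dpi (adjusted p from 0.0706 to 0.258). Mef2ca passed in this comparison without the second pool of 3 dpi (0.53, adjusted p = 0.0466). At 14 dpi relative to 7 dpi, 0 genes were higher (0.813%) and 0 lower (1.57%) in limma, with 1 gene at an unadjusted p below 0.05 and 0 calls with a trended and robust variance.

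The last step was the one with the most calls. At 90 dpi relative to 14 dpi, gata4 (0.31, adjusted p = 0.0405), tbx5a (0.66, adjusted p = 0.0256), tbx5b (0.65, adjusted p = 0.0112) and tbx20 (0.43, adjusted p = 0.0154) were higher, which made 4 of 9 genes against a background of 4.29%, and 0 were lower against 7.03%. A majority of these calls were sensitive to single pools. The call of gata4 was lost without any single pool other than the third of 90 dpi (adjusted p from 0.0624 to 0.132), that of tbx5a without the first or second pool of either time (adjusted p from 0.0630 to 0.120), and that of tbx20 without the first pool of 14 dpi (0.38, adjusted p = 0.0699). Tbx5b kept its call in each of these fits, and for tbx5a the pools of the 2 times overlapped through the third pool of 14 dpi.

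Of 26 further genes of the Nkx2, Gata, T-box, Hand and Mef2 families, 24 had a feature and 9 passed the signal filter. At 4 hpi 3 of these 9 were lower, against 17.5% of all tested features, and 2 were higher, against 21.3%. At 1 dpi 2 were lower (background 16.5%) and 0 higher (22%). The 2 higher genes at 4 hpi and the 2 lower genes at 1 dpi are shares near the background. Mef2aa was lower by a log2 fold change of -0.65 at 4 hpi (adjusted p = 2.1e-04) and -0.87 at 1 dpi (adjusted p = 8.7e-06), and it was called lower at all times up to 14 dpi. Mef2d was higher at 4 hpi (0.49, adjusted p = 0.00730), as mef2cb was. Tbx18, a marker of the epicardium, was lower at 4 hpi (-2.58, adjusted p = 4.5e-07), and tbx1 was higher at 3 dpi (2.49, adjusted p = 1.8e-08).

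Among 24 tested genes for cofactors that bind these factors, 6 were higher (background 21.3%) and 8 lower (17.5%) at 4 hpi. At 1 dpi 3 were higher (22%) and 7 lower (16.5%), and at 7 dpi 1 was higher (14.5%) and 8 were lower (8.02%). The 6 higher genes at 4 hpi are a share near the background. Zfpm2a, a Fog protein that binds Gata factors, was lower at 4 hpi (-0.44), 1 dpi (-0.74, adjusted p = 5.8e-05) and each time up to 14 dpi (-0.36, adjusted p = 0.0433). Tead1a, the DNA-binding partner of Yap, was higher at 4 hpi (1.80, adjusted p = 3.4e-08), and mrtfaa, a coactivator of serum response factor, was higher at 1 dpi (1.17, adjusted p = 3.3e-05). Among 17 tested genes for other regulators of heart development, 5 were higher (21.3%) and 8 lower (17.5%) at 4 hpi; prox1a, a homeobox gene, was lower at 1 dpi (-1.24, adjusted p = 1.8e-06), and prrx1a, a homeobox gene of mesenchyme, was higher at 3 dpi (1.89, adjusted p = 2.7e-06).

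Genes reported in other work as direct targets of these factors had more lower than higher calls at 1 and 3 dpi. Many of them, among them myl7, tnnt2a, atp2a2a and csrp3, are also on the sarcomere list below, so the 2 lists are not separate results. Of 28 tested targets, 10 were lower (background 17.5%) and 9 higher (21.3%) at 4 hpi, 15 lower (16.5%) and 5 higher (22%) at 1 dpi, and 13 lower (14.9%) and 5 higher (20.7%) at 3 dpi. At 7 dpi 6 were lower (8.02%) and 4 higher (14.5%), at 14 dpi 5 were lower (4.57%) and 5 higher (9.39%), and at 90 dpi 1 was lower (7.68%) and 1 higher (11.2%). Smyd1b, a muscle methyltransferase, was lower at 1 dpi (-0.99, adjusted p = 3.7e-06), as was adora1b, an adenosine receptor gene (-1.63, adjusted p = 8.7e-08). The natriuretic peptide gene nppb was higher at 4 hpi (1.70, adjusted p = 5.0e-07) and stayed higher up to 14 dpi, and nppa was higher at 4 hpi, 3 dpi and 7 dpi by 0.45 to 0.50. Ankrd1a, a stretch-responsive ankyrin repeat gene, was higher at 4 hpi by 3.97 (adjusted p = 1.8e-08). Its mean signal in controls was 4.74, below the filter cut of 6, so it passed the filter on arrays after injury. The size of its change therefore starts from a weak signal, and its call is not independent of the filter.

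Genes of the sarcomere and of contraction had their largest numbers of lower calls at 1 and 3 dpi, with lower calls above the background also at 7 dpi. Of 37 tested genes, 8 were lower (background 17.5%) and 7 higher (21.3%) at 4 hpi, with a median of -0.04. At 1 dpi 22 were lower (16.5%) and 1 higher (22%), with a median of -0.41, and at 3 dpi 20 were lower (14.9%) and 2 higher (20.7%), with a median of -0.33. At 7 dpi 10 were still lower (8.02%) and 2 higher (14.5%), with a median of -0.18. At 14 dpi 2 were lower (4.57%) and 4 higher (9.39%), and at 90 dpi 5 were lower (7.68%) and 2 higher (11.2%). The mean control signals of this list and of the targets were 10.80 and 10.41, so strongly expressed features are a closer background. Of the 5788 such features, 31.3% were lower at 1 dpi, 27.3% at 3 dpi and 13.6% at 7 dpi. Kcnj11, a potassium channel gene, was lower at 4 hpi (-2.13, adjusted p = 1.2e-06) and at 1 dpi (-1.89, adjusted p = 2.8e-06), and atp2a2a, the calcium pump of the sarcoplasmic reticulum, was lower at both times (-0.23 and -0.63). Ankrd1a, which is also on this list, was the 1 gene of it that was higher at 1 dpi (3.73, adjusted p = 1.0e-08), from the same weak control signal. The 9 factors had a median of -0.41 already at 4 hpi. The difference between the 2 lists was not tested.

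**Figure D4:**
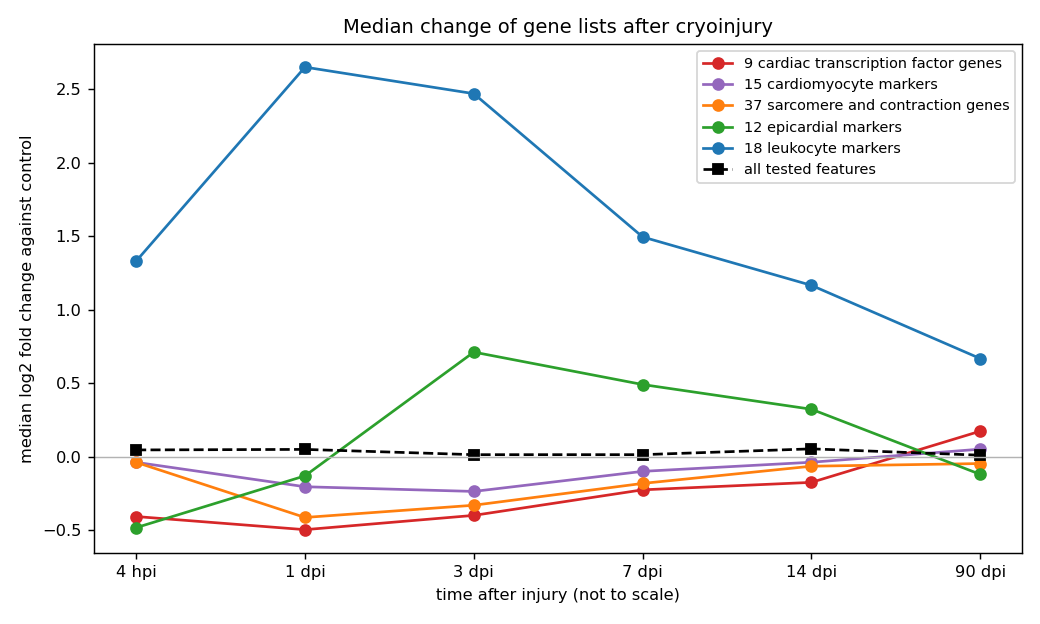
Median log2 fold change against control (vertical axis) of the 9 transcription factor genes, 4 other gene lists and all tested features (lines) at 6 times after injury (horizontal axis, not to scale). The factors have a median of -0.41 at 4 hpi, where the sarcomere list has -0.04, and leukocyte markers have medians from 0.67 to 2.65.

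Markers of other cells moved with the injury at the same times. Of 18 tested leukocyte markers, 13 were higher at 4 hpi (background 21.3%), 16 at 1 dpi (22%), 17 at 3 dpi (20.7%) and still 10 at 90 dpi (11.2%). The mean signal of the list lay between 7.75 and 8.41 at 4 hpi and between 9.28 and 9.67 at 1 dpi, against 6.75 to 6.95 in controls. These control means are not far above the filter cut of 6. Markers that may have passed the filter only on arrays after injury were not set apart in the counts. Of 14 fibroblast and matrix markers, 7 were lower at 4 hpi (background 17.5%) and 13 higher at 3 dpi (20.7%). Lum, 1 of those higher at 3 dpi (4.00), had a mean signal of 3.88 in controls, below the filter cut of 6. It passed the filter on arrays after injury, so its call is not independent of the filter. Of 12 epicardial markers, 6 were lower at 4 hpi (17.5%) and 7 higher at 3 dpi (20.7%). The part of these other cells in the lower values of the transcription factors was not tested.

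The cardiomyocyte markers were used as a reference within each array, although all of those tested except nppa and nppb are also on the sarcomere list. Of 15 tested markers, 3 were lower (background 17.5%) and 2 higher (21.3%) at 4 hpi, and 6 lower (16.5%) and 1 higher (22%) at 1 dpi. At 3 dpi 6 were lower (14.9%) and 2 higher (20.7%), and at 7 dpi 0 were lower (8.02%) and 2 higher (14.5%). The 3 lower markers at 4 hpi and the 2 higher markers at 7 dpi are shares near the background. Of the 5788 strongly expressed features, a closer background for these markers, 31.3% were lower at 1 dpi and 27.3% at 3 dpi. The mean signal of the 15 markers lay between 11.60 and 11.72 at 4 hpi and between 11.45 and 11.60 at 1 dpi, against 11.55 to 11.66 in controls. In a measure added after the data were seen, the mean of these markers was subtracted from each factor on the same array. At 4 hpi this difference was lower than in controls by 1.09 for tbx20, 0.84 for tbx5b, 0.83 for nkx2.5, 0.68 for tbx5a and 0.49 for gata4, with no overlap of the pools, and higher by 0.84 for mef2cb.

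At 1 dpi the same measure was lower by 0.66 for mef2ca, 0.62 for tbx5b, 0.61 for nkx2.5 and 0.52 for tbx20. When nppa and nppb, which were higher after injury, were left out of the markers, the mean of the other 13 was lower by 0.06 at 4 hpi and by 0.22 at 1 dpi. At 1, 3 and 7 dpi this mean lay below every control pool, so the reference itself moved. Relative to these 13 markers, the factors were lower at 4 hpi by 0.93 for tbx20, 0.69 for tbx5b, 0.68 for nkx2.5, 0.53 for tbx5a and 0.34 for gata4, each without overlap. At later times some of the separations were lost with this version. Gata4 at 1 dpi was lower by 0.16 and overlapped the controls, and so did nkx2.5 (lower by 0.29) and tbx5a (lower by 0.38) at 3 dpi, all of which were separate from the controls with 15 markers. At 3 dpi gata4 and tbx20 overlapped the controls on both versions. At 1 dpi mef2ca (lower by 0.52), tbx5b (0.48), nkx2.5 (0.47), tbx20 (0.38) and tbx5a (0.27) stayed separate. Mef2cb was higher relative to the 13 markers by 0.99 at 4 hpi and 0.62 at 1 dpi. It was higher by 0.51 at 3 dpi and at 14 dpi, and overlapped the controls at none of these times. Gata5 at 3 dpi was higher by 0.33 without overlap, but overlapped the controls with 15 markers. At 90 dpi gata4 and gata5 were higher than in controls on both versions of this measure, by 0.15 and 0.32 with all markers, again without overlap.

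Some pools stood at the edge of their group for most of the factors. The third pool of 14 dpi was the highest of its group for 7 of 9 genes and the first the lowest for 6, and the third pool of 4 hpi was the lowest for 6. The third control pool was the lowest control pool for 8 of 9 genes and the highest for mef2cb, which is the direction of the changes after injury. The mean signal of the cardiomyocyte markers in this control pool was 11.66, against 11.55 in each of the other 2 control pools, and that of 13 erythrocyte markers was 8.85, against 9.56 and 9.28. Leukocyte markers in that pool, at 6.85, lay between the other 2 pools. Without this control pool hand2 passed the test at 4 hpi, and no call of a factor against control was lost except that of tbx5b at 14 dpi.

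Genes whose pattern was most like that of a factor over the 21 arrays are given as a description, among 11687 named genes that passed the filter; these arrays share the time course, and r measures likeness of pattern only. The gene most like nkx2.5 was gja5a, a connexin gene (Pearson r = 0.950), followed by adra2b, an adrenergic receptor gene (0.935), and perm1b (0.933). Adra2b was also among the 3 genes most like tbx5b (0.936), after lrch1 (0.948). Tbx20 was most like kcnj12a, an inward rectifier potassium channel gene (0.947), gata4 was most like arhgef18b (0.951) and mef2ca was most like sdk1a (0.959).

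Mef2cb had a different company: ccnl1a, a cyclin gene (0.935), stat3, a transcription factor of cytokine signalling (0.928), and smurf2, a ubiquitin ligase gene (0.908). For hand2 the 3 genes were adnpb (0.909) and the Iroquois homeobox genes irx2a (0.886) and irx1a (0.883). The genes most like gata5 and tbx5a were klhl34 (0.893) and DQX1 (0.892), the lowest of these leading values. No member of the 9 was among the 3 genes most like another.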

How the data were processed

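RNA of 21 pools of zebrafish ventricles was hybridised to arrays, and the authors summarised the scans in Partek Genomics Suite by RMA, with a correction for GC content. The deposited values are log2 signals, 1 per feature and array, and they were used as deposited. All value columns were matched to samples by title, with 0 left over. The array annotation gave 20806 features a single symbol, 855 several and 53551 none, and all 9 symbols were current in RefSeq. Features entered the tests where 1 array or more gave a log2 signal above 6.

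Tests were run with limma 3.58.1 in R 4.3.3 as 1 linear model of the 7 groups (14 residual degrees of freedom), with Benjamini-Hochberg adjustment over the 35783 tested features of each comparison and calls at an adjusted p below 0.05. The code was tested on simulated data. Pairs of related genes were compared by exact permutation of single pools, on the absolute difference of means, in Python 3.11.15, and figures were drawn with matplotlib 3.10.9. All members are named at every time. From each other list, genes named are among the 3 with the lowest adjusted p at 1 dpi or 7 dpi, or are nppa and nppb; for likeness, the 3 highest Pearson correlations per gene are considered. The members and the gene lists were chosen with earlier results of these data known. Alternatives were other filters, normalizations, variance models and sample sets, a replicate block and omission of single pools. Pools with the same number deviated together at 3 and 1 dpi (r = 0.107, 0.135 and 0.146), where 0 members were called with or without the block. The pools of a group are from 3 independent experiments by the study's design text, and the p-values measure the spread between them; with arrays, their number limits the precision. The probe sequences and the scans were not used here.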

Additional observations from a re-analysis of the deposited data

Results flagged for a closer look

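Of all contrasts of successive times, 8 showed a difference between the effect of injury at the later and at the earlier time that passed the limma test across all features. Between 1 dpi and 4 hpi this held for tbx20 (0.39), mef2ca (-0.54) and mef2cb (-0.53), at shares near the background. It held for nkx2.5 between 7 dpi and 3 dpi (0.40). Between 90 dpi and 14 dpi it held for gata4 (0.31), tbx5a (0.66), tbx5b (0.65) and tbx20 (0.43). With 3 pools a group, no outlier test was run.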

How the results depend on the processing

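Of 22 calls of single genes against control, 15 held in every fit that left out 1 pool, as did 4 of 8 calls between successive times. Lower counts ranged over these fits from 4 to 6 at 4 hpi, 5 to 6 at 1 dpi, 4 to 5 at 3 dpi, 0 to 1 at 7 dpi and 1 to 3 at 14 dpi, and higher counts from 0 to 1 at 1 dpi and at 14 dpi, 0 to 2 for 7 dpi against 3 dpi and 1 to 4 for 90 dpi against 14 dpi. Without single replicate numbers the shift ranged from -0.83 to -0.64 for mef2ca minus mef2cb, -0.26 to -0.12 for gata4 minus gata5 and -0.044 to 0.20 for tbx5a minus tbx5b, the last with a change of sign. Differences that were not called changed sign in 17 fits without 1 pool (0 of them called). Against control they ranged from -0.012 to 0.17 for gata5 at 3 dpi, -0.017 to 0.17 for gata5 at 14 dpi and -0.16 to 0.051 for hand2 at 3 dpi. For 1 dpi against 4 hpi they ranged from -0.064 to 0.095 for gata4, -0.19 to 0.029 for gata5 and -0.15 to 0.22 for tbx5b, and for 3 dpi against 1 dpi from -0.053 to 0.070 for tbx5b and -0.14 to 0.076 for mef2ca. For 7 dpi against 3 dpi they ranged from -0.027 to 0.016 for gata4 and -0.0098 to 0.17 for gata5, and for 14 dpi against 7 dpi from -0.19 to 0.0050 for gata5.

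Lower counts at 14 dpi were 1 with no filter, after quantile normalization and with only the 6 arrays compared, and 4 with centred arrays. At 7 dpi they were 3 with centred arrays, 2 with a trended and robust variance and 0 with 6 arrays. With centred arrays they were 6 at 4 hpi, 7 at 1 dpi and 6 at 3 dpi. Higher counts at 1 dpi were 0 after quantile normalization, with centred arrays and with 6 arrays, and at 14 dpi 0 with centred arrays and with 6 arrays. For 7 dpi against 3 dpi the higher count was 0 after quantile normalization and 2 with a trended and robust variance, which also gave 1 at 90 dpi. Quantile normalization reversed mef2ca at 90 dpi (0.0028), gata5 at 1 dpi against 4 hpi (0.021) and tbx5b at 3 dpi against 1 dpi (-0.026), and centring reversed gata5 at 3 dpi (-0.038) and 14 dpi (-0.025). Centring moved the median fold change of all tested features by -0.13 at 4 hpi, -0.18 at 1 dpi, -0.14 at 3 dpi, -0.10 at 7 dpi and -0.12 at 14 dpi. With 6 arrays gata4 at 4 hpi lost its call (adjusted p = 0.0527, limma). The cause of these changes was not tested.

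Equal replicate numbers deviated together by the criterion used (every pair above 0.1) in 3 dpi against 1 dpi but in no other comparison; over all of them the mean correlation of deviations was 0.01 for equal numbers and -0.01 for others. With the number as a replicate block, the higher count for 7 dpi against 3 dpi was 0, since nkx2.5 lost its call (adjusted p = 0.0531, limma), and no other count of the factors changed. Averaging the features of a gene was not run as each gene had 1, and pairs with gata6 were not analysed here.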

Other observations

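The genes next to the 9 factors on the chromosomes, taken from the gene order of RefSeq assembly GRCz12tu, were looked at after the values of the factors were known. Of 18 neighbouring protein-coding genes, 11 were tested. At 4 hpi, 6 of them were lower than in controls, against 17.5% of all tested features, and 2 were higher, against 21.3%. At 1 dpi 7 were lower (16.5%) and 2 higher (22%). Both neighbours of nkx2.5 were lower at 4 hpi: stc2a by a log2 fold change of -0.83 (adjusted p = 1.9e-04, limma) and bnip1a by -1.33 (adjusted p = 9.4e-06). Fdft1 next to gata4 (-1.38) and prps1a next to tbx5b (-0.35) were also lower at 4 hpi. Fig4a, the other neighbour of gata4, did not pass at 4 hpi (-0.44, adjusted p = 0.0724, limma). It was higher at 1 dpi (0.80, adjusted p = 0.00251), when gata4 was lower. At 4 hpi other neighbours went against their factor: herpud2 was higher next to tbx20 (0.87, adjusted p = 3.7e-04), and tmem161b was lower next to mef2cb (-0.41, adjusted p = 0.0116). The neighbours of mef2ca moved in opposite directions, with rasa1b at -1.04 (adjusted p = 1.3e-05) and cetn3 at 1.38 (adjusted p = 9.0e-08), while mef2ca itself did not pass the test at that time. Whether neighbours changed together with their factors was not tested.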
